A study of Mus musculus with 21 samples.

Results

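The arterial and venous identity genes are 10 genes whose products mark or set the arterial or the venous character of blood vessel endothelium. They are Gja4, Gja5, Efnb2, Sox17, Bmx and Nrp1 on the arterial side and Nrp2, Ephb4, Nr2f2 and Aplnr on the venous side. All 10 were found by symbol among the 46517 genes of the deposited count table, and all 10 passed edgeR's expression filter in hearts of control and Notch3-/- mice.

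Arteries and veins are lined by endothelial cells with different gene programmes, which are set early in development and kept in the adult. Notch signalling in endothelium favours the arterial programme, while the nuclear receptor encoded by Nr2f2 favours the venous one. Notch3 itself is made mainly by the smooth muscle cells and pericytes around the vessel and not by the endothelium.

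Left ventricular tissue was taken from 4 control (Notch3+/+) and 3 Notch3-/- mice, all C57BL/6J and 10 to 14 months old, and polyadenylated RNA was sequenced as single reads of 51 bases. The Notch3-/- allele carries a lacZ insertion in the Notch3 locus and was inherited, so that the gene was lost in all cells throughout life, and developmental and adult effects cannot be told apart. The sex of the sequenced mice is not given in the sources used here. Each mouse gave 3 technical libraries, 21 in all, with 464390 to 2134368 counts per library in control mice and 979804 to 2427783 in Notch3-/- mice. Summed over its libraries, a control mouse had 3046326 to 4638786 counts and a Notch3-/- mouse 3828763 to 5167869. Mice are numbered within their genotype. Labels begin with X for control mice 1 and 2 and with k for the other 5 mice, and the meaning of the letter is not given in the sources used here.

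The targeted gene followed the labels. Notch3 had 57.3, 42.2, 57.6 and 61.8 CPM (counts scaled to library size with TMM factors) in control mice 1 to 4 and 6.01, 7.57 and 4.73 CPM in Notch3-/- mice 1 to 3. The groups did not overlap, and the log2 fold change was -3.16 (SE 0.23, edgeR FDR 0.00173). With the k-labelled mice alone, or with a hepatocyte score in the model, the log2 fold change was -3.29 and -3.38 and the gene was no longer called. That score, the mean log2 CPM of the hepatocyte list below, was far higher in Notch3-/- mice 1 and 2 than in the other mice. Estimates made with it can therefore hardly separate genotype from the score.

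The first question was whether loss of Notch3 moved the arterial or venous genes in whole ventricular tissue. None of the 10 was called between genotypes at an FDR under 0.05 and a fold change of at least 1.5 in edgeR, where 0.00698% of the 14324 genes tested were called. DESeq2 and limma-voom also called 0 of the 10. An unadjusted p under 0.05 was reached by 0 of the 10 in edgeR and DESeq2 and by 1, Gja5, in limma-voom on the 7 mice. In limma-voom on the 21 libraries, with the technical library number as a block and libraries of a mouse correlated, it was reached by 1, Aplnr, of the 9 genes that could be tested. Over all genes it was reached by 1928 of 17571 in DESeq2, by 7.71% in limma-voom on the 7 mice and by 12.9% with the block, so a single member is near the background. In edgeR that 0 stood against 10.4% of all genes tested, and the groups failed to overlap for 0 of the 10, against 8.53% of all genes. The log2 fold change was above 0 for 8 members and below 0 for 2, with a median of 0.21, beside a median of -0.003 over all genes. Every one of the 10 intervals at the 95% level included 0. The limma-voom fit on the 21 libraries used 1 correlation of 0.145 for all genes. For Aplnr the SD of log2 CPM was 0.883 between control mice and 0.283 between libraries of a mouse. Its p in that fit may therefore be too small, as may that of any gene whose mice differ more than this correlation allows. In bulk tissue, fewer cells of a type and less RNA per cell cannot be told apart.

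**Figure D1:**
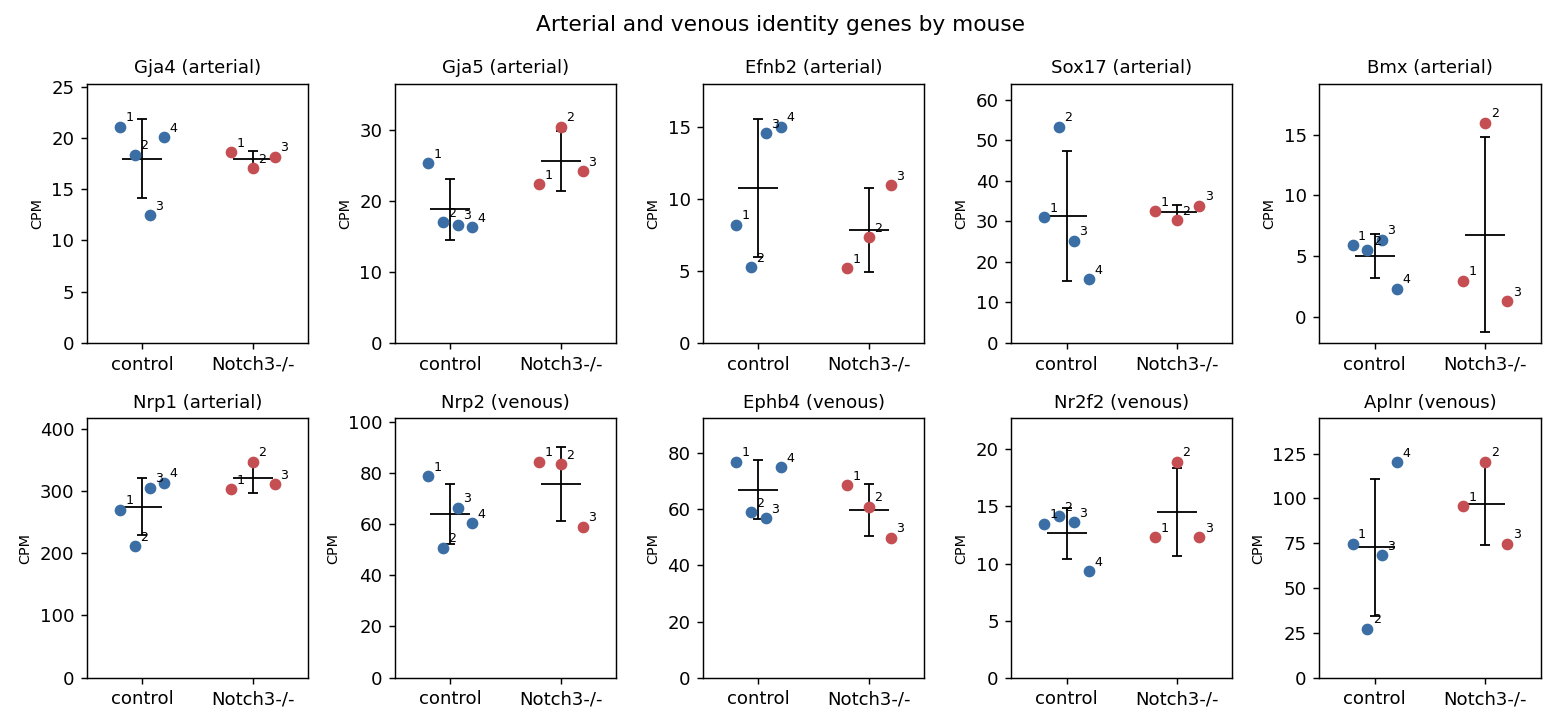
CPM of each of the 10 genes in 4 control mice (blue) and 3 Notch3-/- mice (red), numbered by mouse, with the mean and SD in black. The groups overlap for every gene, and the control mice are spread widely for Sox17 and Aplnr.

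The levels of the 10 genes were compared with each other as CPM per kilobase of merged exon, the only scale here on which genes can be set side by side. Nrp1 was at the top with 28.1 ± 4.73 CPM per kilobase (SD, n = 4) in control mice, followed by Aplnr with 19.6 ± 10.3, Ephb4 with 14.4 ± 2.27 and Gja4 with 10.7 ± 2.28. These neighbours overlapped, and Nrp1 lay above Aplnr in 3 of the 4 control mice. Sox17 (6.56 ± 3.35), Nrp2 (5.41 ± 0.985) and Gja5 (3.28 ± 0.754) came next on the same scale, again with overlapping ranges. Bmx (1.62 ± 0.591), Efnb2 (1.57 ± 0.702) and Nr2f2 (1.47 ± 0.257) were lowest and could not be ordered, since each range overlapped the next. Only the step from Gja5 to Bmx separated neighbours without overlap among the control mice. The order therefore did not follow arterial or venous identity, since the top 4 held 2 arterial and 2 venous genes. In Notch3-/- mice the order of the means was the same down to Bmx, and Nr2f2 then stood above Efnb2. The place of Bmx rested on Notch3-/- mouse 2, since in Notch3-/- mice 1 and 3 Bmx lay below Nr2f2.

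**Figure D2:**
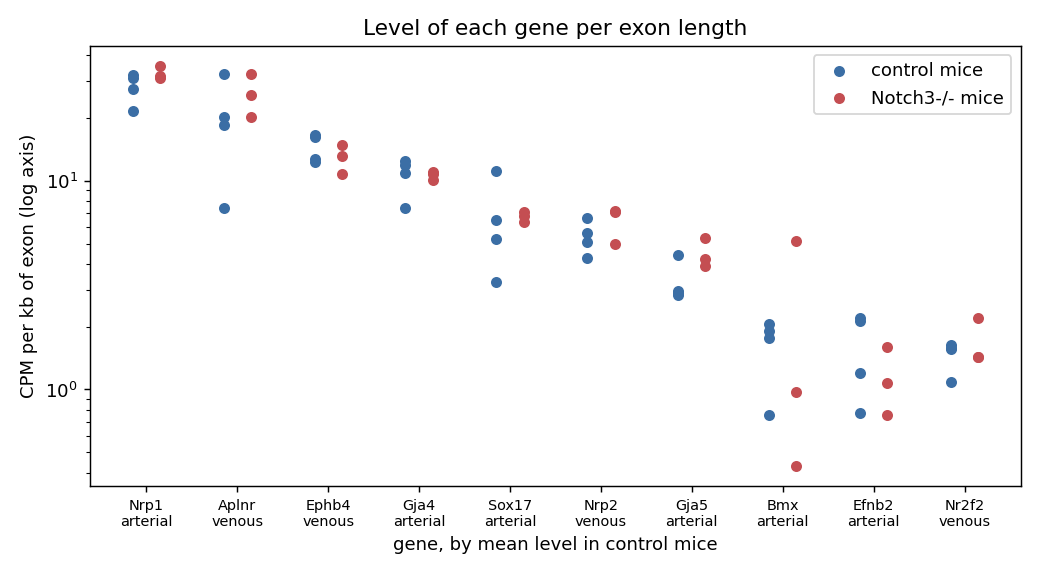
Level of each gene in CPM per kilobase of exon on a log axis, by mouse, with genes ordered by their mean in control mice. Nrp1 is highest at 28.1 in control mice, and Bmx, Efnb2 and Nr2f2 are lowest at 1.47 to 1.62.

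Among the arterial genes, Gja4 and Gja5 encode connexins, the proteins of the gap junctions that couple arterial endothelial cells. Gja4 (ENSMUSG00000050234, chr4:127311421-127314039 in GRCm38, minus strand) was at 21.1, 18.3, 12.5 and 20.0 CPM across the control mice and at 18.6, 17.0 and 18.2 CPM across the Notch3-/- mice. Every Notch3-/- mouse lay inside the control range, with a log2 fold change of 0.00 and a 95% interval of -0.50 to 0.50, which leaves room for a fold change between 0.706 and 1.42.

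Gja5 (ENSMUSG00000057123, chr3:96904693-97077416, plus strand) had 25.4, 17.1, 16.7 and 16.4 CPM in control mice 1 to 4 and 22.4, 30.5 and 24.2 CPM in Notch3-/- mice 1 to 3. Control mouse 1 stood apart from the other control mice and inside the Notch3-/- range, so the groups overlapped. The log2 fold change was 0.45 (SE 0.22, 95% interval -0.05 to 0.95, edgeR FDR 0.512), which had the lowest FDR of the 10 genes. Without control mouse 1 the log2 fold change was 0.62 and without Notch3-/- mouse 2 it was 0.31, and the FDR of Gja5 lay between 0.412 and 0.999 over all 21 alternative settings. The ratio of Gja5 to Gja4 counts, which needs no scaling, was 1.2, 0.931, 1.34 and 0.817 across the control group and 1.21, 1.79 and 1.33 across the Notch3-/- group, and again the groups overlapped. Gja5 is also made in atrial muscle and in the conduction system. Of the atrial list 5 of 7 genes were tested and 0 called, and its summed level was 139.6, 139.7, 249.4 and 164.7 CPM in control and 139.4, 252.6 and 166.0 CPM in Notch3-/- mice, led by Nppa. Of these genes Sln had 17, 7, 1 and 11 counts in control and 1, 1 and 0 in Notch3-/- mice. Counts per mouse were 4 to 20 for Myl7, 15 to 34 for Myl4 and 0 to 9 for Bmp10. They were 10 to 59 for Dkk3, 82 to 902 for Nppa and 220 to 460 for Kcnj3. The part of atrial tissue in the Gja5 values was not tested. The conduction list, led by Tbx3, had 6 of 7 genes tested and 0 called, with 68.5, 66.8, 47.3 and 51.1 CPM summed in control and 62.3, 70.9 and 46.7 CPM in Notch3-/- mice. Gja5 shares 165 exon bases with Gpr89 on the opposite strand, which had 110 to 369 counts per mouse. Whether reads were counted by strand is not given in the sources used here, so reads in the shared bases cannot be told apart.

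Efnb2 encodes ephrin-B2, a membrane ligand on arterial endothelium whose receptor on the venous side is the product of Ephb4. Efnb2 (ENSMUSG00000001300, chr8:8617434-8661242, minus strand) had 8.23, 5.27, 14.6 and 15.0 CPM in control mice 1 to 4 and 5.19, 7.36 and 10.97 CPM in Notch3-/- mice 1 to 3. The control mice divided by label letter, the X-labelled pair being low and the k-labelled pair high, and all Notch3-/- mice lay below the k-labelled pair, with Notch3-/- mouse 2 between the X-labelled mice. The log2 fold change was -0.44 (SE 0.42, edgeR FDR 0.761), and leaving out 1 mouse moved it between -0.77 (without Notch3-/- mouse 3) and -0.22 (without Notch3-/- mouse 1). These values rest on 19 to 62 counts per mouse. Ephb4 (ENSMUSG00000029710, chr5:137350109-137378669, plus strand) was steadier, with 67.0 ± 10.5 CPM (SD, n = 4) in control and 59.8 ± 9.39 CPM (SD, n = 3) in Notch3-/- mice, a log2 fold change of -0.16 (SE 0.17, edgeR FDR 0.788). The ratio of Efnb2 to Ephb4 counts was 0.107, 0.0893, 0.256 and 0.200 across the control group and 0.0757, 0.121 and 0.220 across the Notch3-/- group. It was low in both X-labelled control mice, and the Notch3-/- mice spread over nearly the whole control range.

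Sox17 encodes a transcription factor that acts in arterial specification. Sox17 (ENSMUSG00000025902, chr1:4490931-4497354, minus strand) had 31.0, 53.3, 25.2 and 15.7 CPM in control mice 1 to 4 and 32.5, 30.3 and 33.8 CPM in Notch3-/- mice 1 to 3. The Notch3-/- mice lay close together while the control mice spanned 3.40-fold. The log2 fold change was 0.03 (SE 0.34, edgeR FDR 0.986), and its direction rested on single mice, at 0.42 without control mouse 2 and -0.18 without control mouse 4. Sox17 shares 804 exon bases with Gm37587 on the opposite strand, which had 0 to 16 counts per mouse.

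Bmx encodes a cytoplasmic tyrosine kinase found in arterial endothelium. Bmx (ENSMUSG00000031377, chrX:164192842-164258193, minus strand) was the most thinly counted, with 18, 26, 27 and 7 reads in the control group against 11, 76 and 7 in the Notch3-/- group. In CPM these were 5.93, 5.48, 6.35 and 2.34 for control and 3.01, 16.0 and 1.32 for Notch3-/- mice. A single mouse, Notch3-/- mouse 2, was high, Notch3-/- mouse 1 lay inside the control range and Notch3-/- mouse 3 below it. The log2 fold change was 0.42 (SE 0.71, edgeR FDR 0.881), and without Notch3-/- mouse 2 it was -1.26. The FDR of Bmx lay between 0.508 and 0.999 over the 17 alternative settings that could test it.

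Nrp1 encodes a co-receptor for vascular endothelial growth factor and semaphorins. Nrp1 (ENSMUSG00000025810, chr8:128358604-128503363, plus strand) had 270.0, 211.6, 305.4 and 313.3 CPM in control mice and 303.3, 347.5 and 310.7 CPM in Notch3-/- mice. Of the 10 genes it had the most counts, and its log2 fold change of 0.22 (SE 0.15, 95% interval -0.11 to 0.55, edgeR FDR 0.634) had the narrowest interval. A fold change above 1.46 lay outside that interval.

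On the venous side, Nrp2 encodes the related co-receptor of veins and lymphatic vessels. Nrp2 (ENSMUSG00000025969, chr1:62703285-62818695, plus strand) had 64.1 ± 11.7 CPM (SD, n = 4) in control and 75.7 ± 14.4 CPM (SD, n = 3) in Notch3-/- mice, a log2 fold change of 0.24 (SE 0.19, edgeR FDR 0.699). The ratio of Nrp1 to Nrp2 counts was 3.43, 4.17, 4.6 and 5.18 across the control group and 3.59, 4.16 and 5.27 across the Notch3-/- group. Both genotypes spanned nearly the same range of this ratio. In the lymphatic list 7 of 7 genes were tested, 0 called in edgeR and 1, Reln, in DESeq2, with 254.9, 219.6, 246.8 and 256.8 CPM summed in control and 267.0, 283.9 and 336.4 CPM in Notch3-/- mice, led by Prox1. These sums did not overlap between genotypes, but the separation depended on Reln. It had 3.67 CPM in control mouse 4 and 17.2 CPM in Notch3-/- mouse 1, and the sums overlap when Reln is left out. The part of lymphatic vessels in the Nrp2 values was not tested.

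Nr2f2 encodes COUP-TFII, the nuclear receptor of venous identity. Nr2f2 (ENSMUSG00000030551, chr7:70351944-70366735, minus strand) had 13.5, 14.1, 13.6 and 9.35 CPM in control mice and 12.3, 18.9 and 12.3 CPM in Notch3-/- mice. Apart from control mouse 4 and Notch3-/- mouse 2, the mice lay between 12.3 and 14.1 CPM, and the log2 fold change was 0.19 (SE 0.26, edgeR FDR 0.848). Without Notch3-/- mouse 2 it was -0.05, and without control mouse 4 it was 0.08. Nr2f2 shares 643 exon bases with B130024G19Rik on the opposite strand, which had 2 to 25 counts per mouse.

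Aplnr encodes the apelin receptor, a G protein-coupled receptor of venous endothelium. Aplnr (ENSMUSG00000044338, chr2:85136225-85139923, plus strand) had 74.7, 27.4, 68.2 and 120.2 CPM in control mice 1 to 4 and 95.6, 120.5 and 74.7 CPM in Notch3-/- mice 1 to 3. Control mouse 2 was the lowest of all mice, and control mouse 4 was level with the highest Notch3-/- mouse. The log2 fold change was 0.42 (SE 0.39, edgeR FDR 0.747), and it was 0.14 without control mouse 2 and 0.78 without control mouse 4. Among its ligands Apln, the gene for apelin, had 35.6, 31.4, 28.9 and 30.1 CPM in control and 39.6, 47.5 and 39.9 CPM in Notch3-/- mice. Those groups did not overlap, as for 8.53% of all genes tested, and the log2 fold change was 0.43 (SE 0.15), but the edgeR FDR was 0.361. Apela, the other ligand gene, had 0 counts in all 7 mice.

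**Figure D3:**
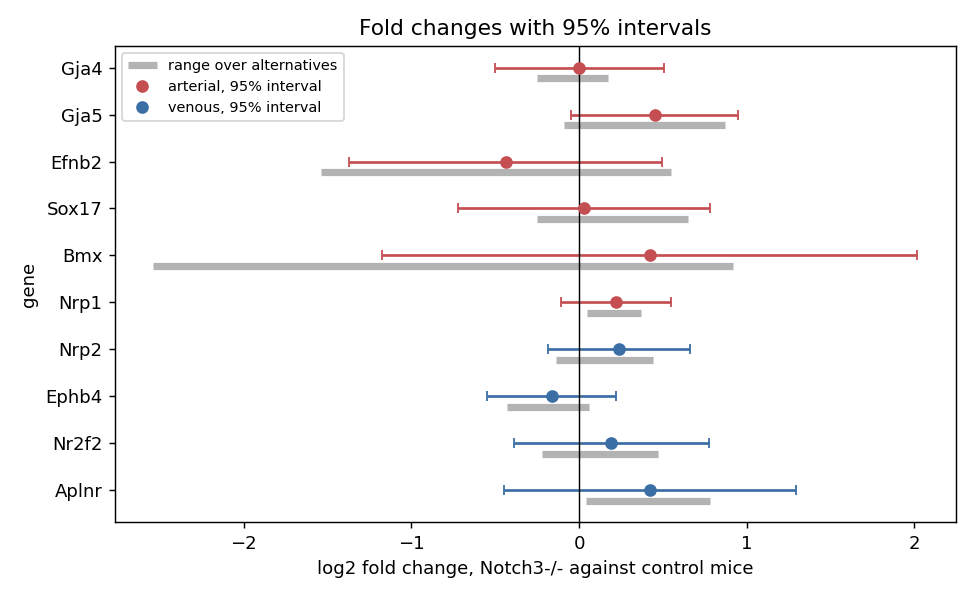
Log2 fold change of each gene, Notch3-/- against control mice, with its 95% interval (coloured) and the range of the estimate over the processing alternatives (grey). Every interval includes 0, and Bmx has the widest, from -1.18 to 2.02.

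The spread between mice of 1 genotype was then set against the spread between the technical libraries of a mouse, a comparison chosen after seeing the data, as were the ratios of counts. In edgeR, 2 of the 10 genes differed among the 4 control mice at an FDR under 0.05, against 4.11% of the 11861 genes tested there. These were Aplnr (edgeR FDR 1.34e-07) and Sox17 (edgeR FDR 0.00135). For Sox17 the 3 libraries of control mouse 2 had 51.2 to 53.9 CPM and those of control mouse 4 had 12.5 to 17.9 CPM. For Aplnr the order was the opposite, with 21.7 to 32.1 CPM in control mouse 2 and 102 to 170 CPM in control mouse 4. An arterial and a venous gene thus stood at opposite ends in the same pair of control mice, beyond what the libraries of a mouse varied. Among the Notch3-/- mice 1 of the 10 genes differed, Bmx (edgeR FDR 0.00355), against 13.2% of the 12858 genes tested. All 3 libraries of Notch3-/- mouse 2 were high for Bmx, at 12.9 to 19.4 CPM, while the libraries of Notch3-/- mice 1 and 3 had 0 to 4.31 CPM. Technical libraries come from the RNA of 1 mouse, so this test speaks of these mice and not of the genotypes.

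**Figure D4:**
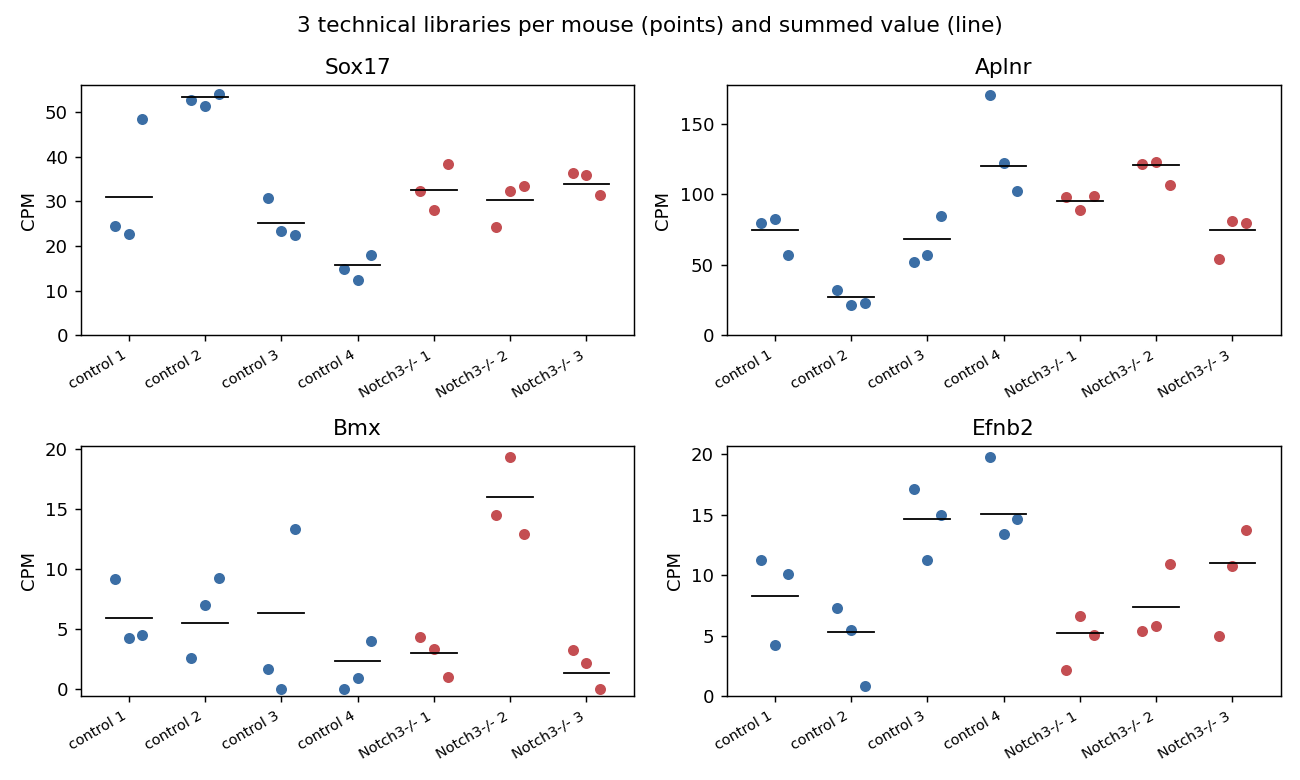
CPM of Sox17, Aplnr, Bmx and Efnb2 in each of 21 libraries (points, blue for control and red for Notch3-/-) and in the summed counts of each mouse (line). The libraries of control mouse 2 are high for Sox17 (51.2 to 53.9) and low for Aplnr (21.7 to 32.1).

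The control group mixes the label letters, so the members were also compared within the k-labelled mice, 2 control and 3 Notch3-/-. X-labelled mice are all control and give no comparison of their own. Of the 10 genes 2 had an unadjusted p under 0.05 there in edgeR, against 6.38% of all genes tested, and 3 did not overlap between groups, against 23.5% of all genes. Gja5 had a log2 fold change of 0.63 (SE 0.24) and Sox17 of 0.65 (SE 0.26), both with an edgeR FDR of 0.734. Efnb2, the other gene without overlap, had a log2 fold change of -0.91 (SE 0.38) with the same edgeR FDR. Aplnr was at 0.04 (SE 0.31). No gene in the table, Notch3 included, was called in these 5 mice in edgeR, and 949 genes had an unadjusted p under 0.05.

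Other genes of the same systems were read from 6 lists with 93 genes, of which 64 were tested and 0 called in edgeR and in limma-voom on the 7 mice. DESeq2 called 2 of 73, Gjb1 and Gjb2, and limma-voom on the 21 libraries with that block called 1 of 52, Cpe. Over all genes DESeq2 called 3.37% and limma-voom with the block 0.554%. An unadjusted p under 0.05 was reached by 9 in edgeR, 14.1% of those tested, beside 10.4% over all genes. The groups did not overlap for 5 of the 64 genes tested, beside 8.53% over all genes, so the genes without overlap named below are not more than the background. Of 25 other arterial genes 20 were tested, 6 above and 14 below 0, with a median log2 fold change of -0.09. The most abundant were Cxcl12, Ltbp4 and Tm4sf1, with log2 fold changes of -0.07, -0.08 and -0.12. Hes1, a target of Notch signalling, had 22.1, 15.4, 20.0 and 11.4 CPM in control and 11.8, 11.4 and 10.6 CPM in Notch3-/- mice (log2 fold change -0.62, SE 0.27, edgeR FDR 0.476). Its Notch3-/- values lay at the low end of the control range or just below it. Of 13 other venous genes 11 were tested, 7 above and 4 below 0, with a median of 0.31. Icam1, a leukocyte adhesion receptor, had a log2 fold change of 0.57 (edgeR FDR 0.441), while Cpe was at -0.63 (edgeR FDR 0.349) and Lrg1 at 0.31. With the block Cpe was at -0.72 (limma-voom FDR 0.0385), and over all its alternatives its FDR lay between 0.0385 and 0.999. Icam1 and Cpe thus did not lie on the same side of 0.

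Of 20 other Eph and ephrin genes 11 were tested, 5 above and 6 below 0, with a median log2 fold change of -0.07. Efnb3, Epha4 and Efna1 were the most abundant, with log2 fold changes of -0.51, -0.07 and 0.06. Efnb3 was at -0.21 without Notch3-/- mouse 2 and at -0.83 without Notch3-/- mouse 3. Epha1 had 4, 11, 21 and 11 counts in control and 9, 142 and 14 in Notch3-/- mice, so that its log2 fold change of 1.91 (edgeR FDR 0.479) rested on Notch3-/- mouse 2 and was -0.27 without that mouse. The neuropilin ligands and co-receptors had 17 of 18 genes tested, 8 above and 9 below 0, with a median of -0.01. Kdr, the main endothelial receptor for vascular endothelial growth factor, was at 0.43 (SE 0.24, edgeR FDR 0.571) and the semaphorin receptor Plxnd1 at 0.06. Kdr was at 0.09 in the k-labelled mice, 0.25 without control mouse 2 and 0.98 with the hepatocyte score in the model. Vegfb had 135, 125, 144 and 150 CPM in control and 104, 69.0 and 112 CPM in Notch3-/- mice, groups that did not overlap (log2 fold change -0.55, edgeR FDR 0.320). Vegfb was at -0.36 without Notch3-/- mouse 2 and at -0.13 with the hepatocyte score. Plxna3 was at 1.30 (edgeR FDR 0.435) on 4 to 25 counts per mouse, at 0.86 without Notch3-/- mouse 1 and at 0.89 in the k-labelled mice.

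Among 15 other connexins only 4 passed the filter, 1 above and 3 below 0, with a median log2 fold change of -0.40. Gja1, the main connexin of ventricular muscle, was at 0.09. Gjc1 had 13.5, 12.2, 19.5 and 10.7 CPM in control and 6.29, 5.68 and 7.37 CPM in Notch3-/- mice, without overlap, and a log2 fold change of -1.12 (SE 0.29, edgeR FDR 0.204). Gja10 and Gjb6 had 0 counts in all mice. Gjb1 and Gjb2, the connexins of liver cells, were at 0, 3, 2 and 0 reads each across the control group. Across the Notch3-/- group Gjb1 was at 420, 1319 and 4 reads and Gjb2 at 224, 1039 and 5. These liver genes were thus abundant in Notch3-/- mice 1 and 2 alone.

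**Figure D5:**
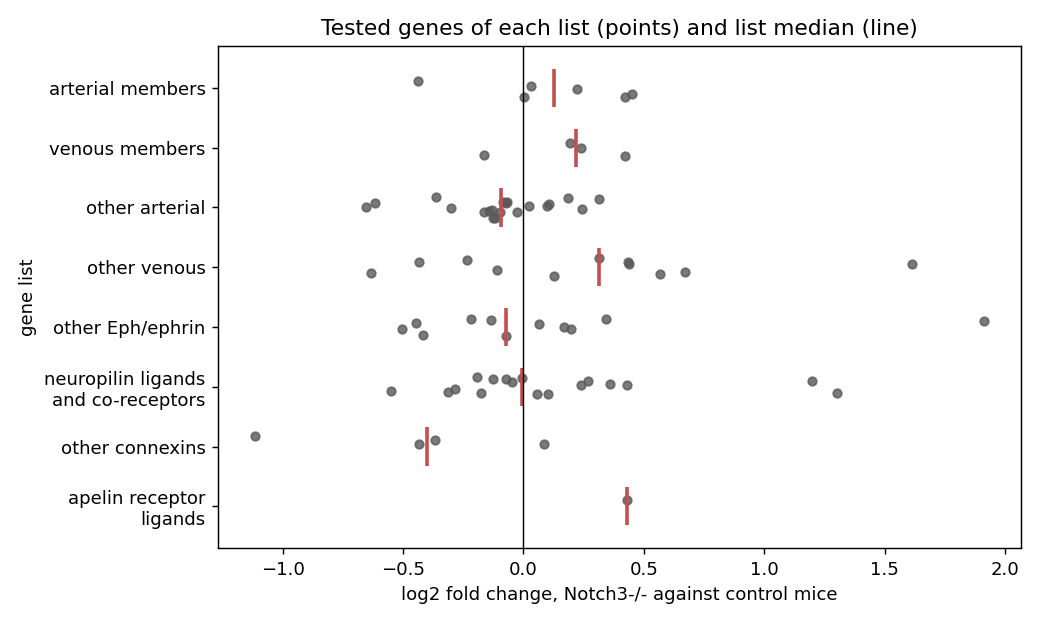
Log2 fold change, Notch3-/- against control mice, of every tested gene in the member and pathway lists (points) with the list median (red line). The vertical line is the median of all genes, -0.003, and Epha1 at 1.91 is the rightmost point.

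Markers of the cells that could carry these genes were read from 17 lists, in which edgeR and limma-voom on the 7 mice called 0 genes. DESeq2 called 22 of 122, beside 3.37% over all genes in DESeq2, and limma-voom with the block called 3 of 93 (3.23%), Alb, Col3a1 and Myh11, beside 0.554% over all genes. An unadjusted p under 0.05 was reached by 34 of the 115 marker genes tested in edgeR (29.6%), beside 10.4% over all genes, and 15 of the 34 are hepatocyte genes. The endothelial list had 18 of 18 genes tested and 0 called in edgeR, and its summed level was 2453, 2091, 2200 and 2568 CPM in control and 2407, 2617 and 2293 CPM in Notch3-/- mice, led by Eng. The groups overlapped, so the summed endothelial RNA gave no separation by genotype. Capillary genes, led by Aqp1, summed to 1246, 1289, 1104 and 1331 CPM in control and 1023, 1078 and 1067 CPM in Notch3-/- mice (7 of 7 tested, 0 called). Here the Notch3-/- mice lay below all control mice, but the separation depended on Aqp1 (log2 fold change -0.29, edgeR FDR 0.598). The capillary sums overlap when Aqp1 is left out. Endocardial genes, led by Nfatc1, summed to 43.4 to 92.9 CPM in control and 45.6 to 56.2 CPM in Notch3-/- mice (3 of 3 tested, 0 called). Ventricular muscle genes, led by Ttn, were abundant in all mice at 19480 to 29750 CPM (9 of 9 tested, 0 called), as the labelled tissue requires. Of these genes 0 lay above and 9 below 0, with a median log2 fold change of -0.24.

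Liver markers were high in part of the Notch3-/- group. The hepatocyte list had 15 of 15 genes tested, all above 0, with 48.7, 150, 11.5 and 23.7 CPM summed in control and 6405, 11890 and 139 CPM in Notch3-/- mice, led by Alb. All 15 had an unadjusted p under 0.05 in edgeR, which called 0 of them, and DESeq2 called 15. The list of liver sinusoidal endothelium had 4 of 6 genes tested, 0 called in edgeR and 3 in DESeq2, with 58.6, 50.4, 38.4 and 33.7 CPM in control and 89.9, 153 and 41.6 CPM in Notch3-/- mice, led by Fcgr2b. Its gene Oit3 had 0, 2, 0 and 0 counts in control and 21, 47 and 0 counts in Notch3-/- mice. Notch3-/- mouse 2, the highest for both lists, was also the highest of the 3 for Gja5, Bmx, Nrp1, Nr2f2 and Aplnr. The same mouse was the lowest of the 3 for Gja4 and Sox17 and in between for Efnb2, Nrp2 and Ephb4, and the part of liver RNA in those values was not tested. With a hepatocyte score added to the model, 6 of the 10 genes turned in sign, Bmx to -2.54, Efnb2 to 0.55, Sox17 to -0.25, Nr2f2 to -0.22, Nrp2 to -0.10 and Gja4 to -0.03 on the log2 scale, and all 10 genes were at an edgeR FDR of 0.999.

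The promoters were searched for letters bound by the Notch partner RBPJ. Of the 10 genes 8 were matched by symbol in the RefSeq promoter table (GRCm38.p6), all except Sox17 and Aplnr, and the 250 bases before each start were read on both strands. The motif GTGGGAA was in 0 of the 8 and in 5.42% of all 32851 promoters, and the E-box CACGTG, bound by Hes and Hey proteins, in 0 of the 8 and in 6.02%. The shorter core TGGGAA, which lies inside the first motif, was in 1 of the 8, Bmx, and in 21.6% of all promoters. The Bmx match is shown because it is the single one found, at chrX:164258354-164258383 on the minus strand, upstream of the gene, with the core in capitals.
Bmx: ccaagagctgccTGGGAAaagcaggagccg
A match describes the letters only.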

How the data were processed

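The authors deposited whole-number read counts per Ensembl gene for 21 libraries, without normalization. The submitters' processing notes name CASAVA and the build mm10, and the counting program is not given in the sources used here. RNA was reverse transcribed, amplified by PCR and cut with Tn5 (sample protocol), and molecular identifiers are not mentioned, so precision from counts covers counting error only. ERCC spike-in rows (92, with 34 counts in all) were left out. The 3 technical libraries were summed per mouse. Genes were matched to GENCODE vM21 (GRCm38), which held 46005 of 46517 identifiers. edgeR 4.0.16 (R 4.3.3) was used with filterByExpr, TMM and its quasi-likelihood test on genotype, with Benjamini-Hochberg adjustment over all genes. DESeq2 1.42.0 and limma 3.58.1 were alternatives, and the fits were tested on simulated data. Named genes are the 10 members, Notch3, the 3 most abundant genes (mean CPM) of each pathway list with those at an unadjusted p under 0.05, the most abundant gene of each marker list, and genes at 0 counts, of which some are not reported here; other genes named were chosen after their values were seen. The members and lists were chosen with earlier results of these data known.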

Additional observations from a re-analysis of the deposited data

Results flagged for a closer look

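In 4 of 47 named genes with counts in control mice, 1 of the 4 control mice lay far from the other control mice, judged by its gap to the nearest divided by the whole range. Chance gives about 1 such gene in 20. Gja5 was high in control mouse 1 (0.922) and Nr2f2 low in control mouse 4 (0.870). Outside the 10 genes, Tm4sf1 (0.874) and Gja1 (0.897) were low in control mouse 2.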

How the results depend on the processing

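No member was called under any of the 22 alternatives, while the number of genes called over the whole table was 1 and went to 593 with DESeq2, 639 with no filter, 78 per endothelial transcript, 62 in limma-voom on 21 libraries with the technical replicate block, 48, 39 and 77 in technical libraries 1, 2 and 3 alone, and 0 in k-labelled mice or with the hepatocyte covariate. Leaving out 1 mouse gave 1 to 936 genes called, the highest without Notch3-/- mouse 3. Technical replicate numbers mark libraries of 1 mouse and pair no mice.

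Members at an unadjusted p under 0.05 numbered 0, and 0 to 1 when 1 mouse was left out, 2 in k-labelled mice (Gja5, Sox17) and 1 each with the hepatocyte covariate (Bmx), limma-voom on 7 mice (Gja5), the block (Aplnr), and technical libraries 1 (Efnb2) and 3 (Gja5). Notch3 kept its direction throughout and lost its call in k-labelled mice (-3.29) and with the hepatocyte covariate (-3.38). The shorter RBPJ core raised the promoters matched from 0 to 1.

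Of 206 member estimates 28 changed sign, and Nrp1 and Aplnr never did. Bmx had too few counts to be tested under 4 further alternatives, which are not among the 206. Gja4 was -0.0032 with DESeq2, -0.01 with RLE, -0.06 per endothelial transcript, -0.02 with no filter, -0.03 with the covariate, -0.25 in technical library 1 and -0.15 to 0.08 with 1 mouse left out. Sox17 was -0.08 per endothelial transcript, -0.25 with the covariate, -0.08 and -0.03 in technical libraries 1 and 3 and -0.18 to 0.42 with 1 mouse left out. Bmx was -2.54 with the covariate, -0.29 in limma-voom on 7 mice, -0.84 in technical library 3 and -1.26 to 0.92 with 1 mouse left out. Nr2f2 was -0.22 with the covariate, -0.06 in technical library 3 and -0.05 to 0.30 with 1 mouse left out. With the covariate Efnb2 was 0.55 and Nrp2 -0.10. In technical library 1 Nrp2 was -0.14, and in technical library 3 Ephb4 was 0.06. With 1 mouse left out Gja5 was 0.31 to 0.62, Efnb2 -0.77 to -0.22, Nrp1 0.11 to 0.29, Nrp2 0.13 to 0.39, Ephb4 -0.27 to -0.05 and Aplnr 0.14 to 0.78. Technical libraries 1, 2 and 3 alone gave -1.54, -0.14 and -0.02 for Efnb2 and -0.09, 0.27 and 0.87 for Gja5. Over all alternatives Gja4 ranged from -0.25 to 0.17, Gja5 from -0.09 to 0.87, Efnb2 from -1.54 to 0.55, Sox17 from -0.25 to 0.65, Bmx from -2.54 to 0.92, Nrp1 from 0.05 (k-labelled mice) to 0.37, Nrp2 from -0.14 to 0.44, Ephb4 from -0.43 (covariate) to 0.06, Nr2f2 from -0.22 to 0.47 and Aplnr from 0.04 (k-labelled mice) to 0.78. With the covariate Gja5 was 0.29, and with the block Aplnr was 0.66. The causes were not tested.

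The 18 pathway genes run under the alternatives changed sign in 25 of 368 estimates, and marker genes were not run one by one. Cpe was called with the block (-0.72). With the covariate Cpe was -0.24, Gjc1 -0.74, Apln 0.27, Icam1 0.37 and Lrg1 0.02. Without Notch3-/- mouse 2 Cpe was -0.38, Icam1 0.36 and Lrg1 0.10. In technical library 1 Apln was 0.0013. With 1 mouse left out Ltbp4 was -0.21 to 0.01, Efna1 -0.04 to 0.17, Epha1 -0.27 to 2.39, Plxnd1 -0.05 to 0.16 and Gja1 -0.05 to 0.14. With the covariate the sign changes were Tm4sf1 (0.05), Efna1 (-0.09), Efnb3 (0.13), Epha1 (-0.71), Epha4 (0.04) and Plxnd1 (-0.09). In technical library 1 they were Cxcl12 (0.11), Tm4sf1 (0.16), Epha4 (0.07) and Gja1 (-0.10), in library 2 Epha4 (0.01), and in library 3 Efna1 (-0.09) and Plxnd1 (-0.22). In k-labelled mice they were Efna1 (-0.11), Plxnd1 (-0.06) and Gja1 (-0.06), and per endothelial transcript Efna1 (-0.01) and Plxnd1 (-0.01).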

Other observations

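Smooth muscle genes, led by Smtn, had 9 of 11 genes tested, 3 above and 6 below 0, with a median log2 fold change of -0.22 and 0 called in edgeR. An unadjusted p under 0.05 was reached by 3 genes, all below 0, Myh11, Myl9 (-0.88, edgeR FDR 0.288) and Tagln (-0.93, edgeR FDR 0.396), and by 0 of the genes above 0, Acta2 (0.15), Mylk (0.24) and Itga8 (0.70). Myh11, the defining gene of contractile smooth muscle, had 121, 97, 45 and 59 counts in control and 12, 24 and 19 in Notch3-/- mice, with a log2 fold change of -2.49 (edgeR FDR 0.118), and DESeq2 and limma-voom with the block called it. Pericyte genes, led by Rgs5 (log2 fold change -0.34, edgeR FDR 0.249), had 6 of 6 tested, 1 above and 5 below 0, and 0 called. Their sums were 1263, 1137, 1167 and 1213 CPM in control and 1106, 939.8 and 988.6 CPM in Notch3-/- mice. These sums did not overlap between genotypes, but they do overlap when Rgs5 is left out. Fibroblast genes, led by Dcn, had 9 of 9 tested, with 0 called in edgeR. DESeq2 called 2 of the 9, Col1a1 and Col3a1, beside 3.37% over all genes. In edgeR 5 of the 9 had an unadjusted p under 0.05, 4 above and 1 below 0, beside 10.4% over all genes. It was also reached by 2 of 6 pericyte and 2 of 5 erythroid genes, all below 0, and by 1 of 7 macrophage genes, above 0. No gene was called in edgeR or DESeq2 among macrophage (Csf1r, 7 of 7), erythroid (Hbb-bs, 5 of 5) and Schwann cell (1 of 3) genes, and of 4 adipocyte genes, led by Cidec, 0 were tested in edgeR and 0 called in DESeq2. Mesothelial genes, led by Wt1, had 4 of 4 tested and 0 called. Wt1 itself had 28 and 58 counts in the X-labelled control mice, 51 and 43 in the k-labelled ones and 37, 87 and 64 in Notch3-/- mice, without a division by letter. Upk3b, Msln and Upk1b did divide by letter among the control mice, with Upk3b at 1 and 2 counts in the X-labelled control mice and 63 and 45 in the k-labelled ones, and at 34, 25 and 133 in Notch3-/- mice.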
